A study of Rattus norvegicus with 30 samples.

Results

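The maturation of rat cortical neuron cultures that carried αSyn 3K was followed from 12 to 19 d after AAV9 transduction. The 5 RNA-Seq libraries of αSyn 3K cultures (3K) of day 19 were set against the 5 of day 12, 10 of the 30 libraries of the series, over all genes whose normalized count reached 10 in 5 or more of the 30. αSyn 3K is human α-synuclein, a presynaptic protein that aggregates in Parkinson's disease, with 3 glutamates changed to lysines, expressed from the CAG promoter, which is not restricted to neurons. Control cultures (EV) received AAV9 made from the vector without an insert, and all cultures came from embryonic cortex of Sprague Dawley rats and were transduced on day in vitro 5. The column names of both groups also carry the term PBS, and its role is not stated in the sources used here. The sources give 5 replicates per group without saying whether these were separate cultures, so that p-values measure the spread between libraries, which may be technical.

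With age in culture, cortical neurons extend axons less and build synapses. The isoforms of cytoskeletal proteins, channels and receptors that dominate in the embryo give way to those of the adult brain. Spontaneous firing that appears with synapses drives activity-regulated genes, among them transcription factors such as those of the AP-1 and EGR families, neurotrophins and secreted peptides. Astrocytes and cells of the oligodendrocyte lineage that were plated with the neurons multiply or mature alongside them, and astrocytes become the main suppliers of cholesterol carriers.

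Recovered whole reads over genes ranged from 4923519 to 7035869 in the 10 3K libraries of days 12 and 19, and 12911 genes passed the filter and were tested. Reads of the αSyn 3K vector itself had normalized counts of 8655, 8080, 9302, 8647 and 8566 at day 12 and 23669, 28883, 22901, 23826 and 24497 at day 19. All 5 libraries of day 19 lay above all 5 of day 12, a 2.86-fold rise of the mean (exact permutation p = 0.0079, two-sided, the smallest p that 5 against 5 libraries allow), against background counts of 133 to 180 and 172 to 250 in EV. Of the neuron markers, Tubb3, Map2 and Snap25 were present throughout and Rbfox3 had a normalized count of 276 to 363. The astrocyte markers Gfap and Aqp4 were present too, and the summed normalized count of 32 astrocyte genes was 67495 to 72174 at day 12 and 123330 to 138640 at day 19, while that of 25 genes of the oligodendrocyte lineage was 11985 to 13592 and 7060 to 8622. In bulk libraries, fewer cells of a type and less RNA per cell cannot be told apart, and a gene can be diluted where other cells grow. The study reported that viability of such cultures fell below that of EV by the later day, with a trend at the earlier day. It also reported that astrocytes were more susceptible than neurons. The changes below may therefore include those of surviving cells, and maturation was not tested apart from cell loss. Of 24 microglia genes 6 were at 0 in all 10 3K libraries, with the defining markers Cx3cr1 and P2ry12 among them, and the endothelial marker Cldn5 was at 0. Replicate 4 of 3K day 19 stood apart for several glial and cholesterol genes, and its values are given where they touch a result; without it 5641 genes changed in place of 5916. The mitochondrial share of reads was 3.81% to 4.64% at day 12 and 4.5% to 5.14% at day 19.

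From day 12 to day 19 of 3K cultures, 3009 of 12911 genes rose (23.3%) and 2907 fell (22.5%), by limma on log2(normalized count + 1) with a Benjamini-Hochberg adjusted p under 0.05. Below, "rose" and "fell" stand for genes past this threshold, fold changes are ratios of mean normalized counts, and log2 fold changes are on the log2(normalized count + 1) scale, which understates those of genes with few reads. The change was at least 2-fold for 407 genes that rose (3.15%) and 338 that fell (2.62%), and the median log2 fold change over all genes tested was -0.003. For 2154 genes (16.7%) all 5 libraries of day 19 lay above all 5 of day 12, and for 1949 genes (15.1%) they lay below. A typical log2 fold change had an SE of 0.101, the median over genes.

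Activity-regulated and astrocyte genes were among the largest rises, and genes of the oligodendrocyte lineage, of dividing cells and of lipid synthesis among the largest falls. Fosb, an AP-1 transcription factor induced by neuronal activity, had normalized counts of 3.56, 15.1, 2.17, 18.3 and 4.33 at day 12 and 169, 192, 119.8, 123 and 160.5 at day 19, a 17.6-fold rise (log2 fold change 4.33, SE 0.52, limma adjusted p = 4.0e-08). The day 12 libraries of Fosb held few reads and spread widely, and the highest of them was far below the lowest of day 19. Ptgs2, the inducible cyclooxygenase, rose 7.99-fold from 18.7 ± 3.85 (SD, n = 5) to 149 ± 28.5 (SD, n = 5), and Egr2, a zinc finger factor of the EGR family, 4.63-fold. Among genes of astrocytes, Slc14a1, a urea transporter, rose 8.23-fold to 261 ± 57.1 (SD, n = 5), and Chi3l1, a secreted glycoprotein, 6.31-fold. A2m, a secreted protease inhibitor, had 68.5, 64.4, 68.5, 65.2 and 66.0 at day 12 and 466, 584, 565, 371 and 582 at day 19, and Itih3, which binds hyaluronan, rose 4.84-fold. Cav2, a caveolin of membrane pits, rose 5.77-fold, Gpat3, which starts the synthesis of glycerolipids, 5.02-fold, and Ankrd33b 9.49-fold.

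Sox10, the transcription factor that defines the oligodendrocyte lineage, fell from 76.5, 111, 113, 146 and 103 to 14.2, 12.9, 14.7, 11.8 and 8.28, an 8.88-fold fall (log2 fold change -3.05, SE 0.19, adjusted p = 1.0e-14) with no overlap between days. Mbp, a main protein of myelin, was 5.00-fold lower and Ugt8, which makes the myelin lipid galactosylceramide, 4.03-fold lower at day 19. Id3, an inhibitor of basic helix-loop-helix factors in undifferentiated cells, was 6.59-fold lower, and Cdkn1c, a cyclin-dependent kinase inhibitor, 4.72-fold lower. Mybl2, a transcription factor of the cell cycle, Cdkn3, a phosphatase of cyclin-dependent kinases, and Matn4, a matrix protein, were lower by 3.52-, 3.53- and 3.51-fold. Scd, the desaturase that makes monounsaturated fatty acids, had 836, 729, 639, 839 and 726 at day 12 and 175, 155, 177, 141 and 178 at day 19, a 4.56-fold fall. The fall of Hmgb3, a chromatin protein, was uneven: counts of 173, 0, 86.8, 111 and 97.3 at day 19 followed 197, 185, 253, 269.8 and 173 at day 12, and the adjusted p was 0.012, but 0.075 when only the 3K libraries of both days were fitted.

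**Figure D1:**
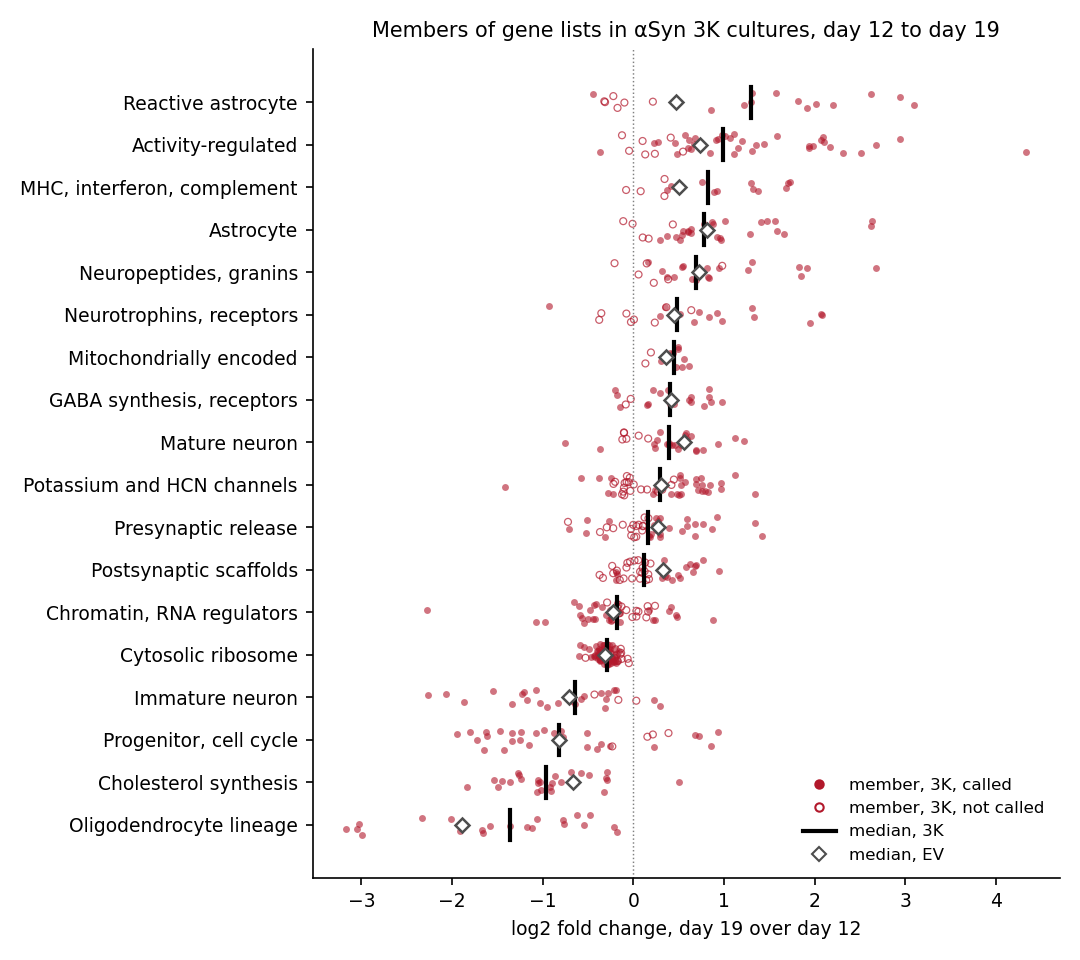
Log2 fold change from day 12 to day 19 (x axis, day 19 over day 12) of each tested member of 18 gene lists (y axis) in 3K cultures. Filled points passed the limma threshold, open points did not, the black bar is the median of the list in 3K and the diamond its median in EV. Reactive astrocyte and activity-regulated lists have the highest medians (1.29 and 0.99) and the oligodendrocyte lineage the lowest (-1.37). Genes with few reads that pass the filter only through 3K day 19 can raise a median in 3K.

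Genes of immature neurons fell together, and most genes of mature neurons rose. Of 27 immature neuron genes 22 fell (22.5% of all genes tested) and 2 rose (23.3% of all genes), with a median log2 fold change of -0.64 in 3K and -0.70 in EV, against -0.003 and 0.006 over all genes tested. The same backgrounds apply to the counts of the lists below. Crmp1, a mediator of growth cone collapse, fell from 7033, 6664, 6993, 6701 and 6801 to 3219, 3246, 3232, 3475 and 3133 (log2 fold change -1.07, SE 0.032, limma adjusted p = 4.4e-22). Tubb3, the β-tubulin of young neurons, fell from 8399, 7876, 7766, 7993 and 7997 to 3243, 3381, 3555, 3955 and 3295, a 2.30-fold fall. In both genes the libraries of a day lay close together and the days did not overlap. Tuba1a, the α-tubulin of growing neurites, fell 1.94-fold. The members of the list that rose were Nfia, a transcription factor that also drives glial fate (0.30, adjusted p = 0.00034), and Neurod2, a neuronal differentiation factor whose call was lost without replicate 2 or 4 of day 12 or replicate 1, 4 or 5 of day 19. Members named only to complete a count of 5 or fewer, such as Neurod2, were chosen after their values were seen. Of 40 genes of axon guidance and growth, 14 fell and 5 rose (Ntn4, Nrp1, Slit3, Unc5a and Slit2). Robo1, a receptor of the repellent Slit, fell 1.65-fold, Ephb2, an ephrin receptor, 1.70-fold, and Ntn4, a netrin of basement membranes, rose 2.26-fold.

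Of 29 mature neuron genes 21 rose and 2 fell, with a median of 0.39 in 3K and 0.55 in EV, where 23 rose. Slc17a7, which loads glutamate into synaptic vesicles, rose from 4797, 4631, 4606, 4570.0 and 4590.2 to 7022, 7229, 7154, 7444 and 7177 (0.64, SE 0.025, adjusted p = 2.3e-19), with a gap between days that was several times the range within either. Thy1, a surface protein of mature neurons, rose 1.62-fold, and Stmn2, a neuronal stathmin on the mature list, fell 1.69-fold. The dendritic Map2 also fell (-0.37, adjusted p = 0.00068). The pan-neuronal list was balanced in its calls, with 8 rises and 9 falls among 22 genes and a median of -0.044. Mapt, the axonal protein tau on this list, fell 1.98-fold. The summed normalized count of the list fell in 3K, from 55206 to 57641 at day 12 to 46694 to 51892 at day 19. That of the mature neuron list rose, from 55692 to 58864 at day 12 to 63284 to 68804 at day 19. In EV both sums moved in the same directions. The list of myelin, node and axon genes had 9 rises and 19 falls among 41. On it, Cntnap1, an axonal protein of the node's flanks, rose 2.59-fold, and the tubulin Tubb2b and the microtubule destabilizer Stmn1 fell 2.04- and 1.78-fold. Lists share members, so that their counts are not independent of each other.

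Synaptic genes rose more often than they fell, in modest steps. Of 43 genes of vesicles and release, 21 rose and 5 fell (Stx1a, Syn3, Erc2, Doc2b and Syt7). Dnm1, the dynamin that retrieves vesicles, rose from 1836, 1603, 1717, 1653 and 1587 to 2942, 3345, 2994, 3268 and 2805, a 1.83-fold rise with no overlap between days (0.87, adjusted p = 1.1e-12). Snap25, a SNARE protein of vesicle fusion, rose 1.71-fold and the vesicle protein Syp 1.60-fold, while Stx1a, their plasma membrane partner, fell 1.24-fold. Of 40 postsynaptic scaffold and signaling genes 14 rose and 3 fell (Arhgef7, Dlgap4 and LRRTM1, but 5 without replicate 5 of day 19), with a median of 0.11, and in EV 25 rose and 0 fell, with a median of 0.33. The difference between the 2 changes was called for 1 of these genes, LRRTM1, a synaptic adhesion protein. Dlg1 and Dlgap1, scaffolds that hold receptors at the synapse, rose 1.92- and 1.60-fold, Baiap2, a scaffold of spine actin, 1.43-fold, and Arhgef7, a Rac exchange factor, fell 1.14-fold.

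Among glutamate receptor genes, 11 of 24 AMPA and kainate receptor and auxiliary genes rose and 4 fell (Neto2, Cnih2, Cacng4 and Grik2). Cacng3, an auxiliary subunit of AMPA receptors, rose from 173, 218, 252.1, 192 and 205 to 455, 568, 418, 473 and 390.3, and Nptx1, a secreted pentraxin that clusters them, 2.09-fold. The days did not overlap for either gene. Neto2, an auxiliary subunit of kainate receptors, fell 1.43-fold. Of 13 NMDA and metabotropic receptor genes 4 rose (Grin1, Grin2c, Grm8 and Grm2) and 1 fell (2 with equal totals or upper quartiles or without replicate 2 or 4 of day 19). Grin1, the obligatory NMDA receptor subunit, rose 1.32-fold, Grin2c 3.10-fold, and Grin3a, a subunit of juvenile synapses, fell 1.60-fold. Grin2a and Grin2b, whose exchange is a mark of cortical maturation in vivo, had log2 fold changes of 0.26 (SE 0.31, adjusted p = 0.52) and -0.044 (SE 0.10, adjusted p = 0.76).

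Most genes of GABA synthesis, receptors and synapses rose, 16 of 21 with 3 falls (Gabra5 and Gphn among them) and a median of 0.41 (EV 0.42). Gad1, which makes GABA, rose from 352, 333, 376, 334 and 322 to 595, 663, 623, 606 and 627 (0.86, SE 0.059, adjusted p = 2.0e-13), and its isoform Gad2 1.77-fold. The receptor subunit Gabra5, which is high early in development, fell 1.15-fold. Of 21 interneuron genes 9 rose and 3 fell (Calb2, Sox6 and Nos1). The calcium-binding proteins that mark interneuron classes parted. Calb1 rose from 789.7 ± 34.4 (SD, n = 5) to 1538 ± 132 (SD, n = 5), and Calb2, the gene of calretinin, fell from 456, 468, 490.1, 409 and 453 to 146, 147, 137, 145 and 125. Kcnc2, a potassium channel of fast-spiking cells, rose 2.51-fold.

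Channel genes rose in part. Of 48 potassium and HCN channel genes 23 rose and 6 fell, with Kcnab1, an auxiliary subunit, at 1.70-fold and Kcnf1, a modifier of Kv2 channels, at 1.69-fold, and with a 1.48-fold fall of the pacemaker channel Hcn4. Of 14 sodium channel genes 4 rose (Scn2b, Scn3b and Scn1a among them) and 2 fell (Scn3a and Scn9a). The auxiliary subunit Scn2b rose from 133, 143, 128, 114 and 114 to 181, 198, 188, 196 and 169.8, while Scn3a, the channel of the embryonic brain, fell 1.30-fold. Of 24 calcium channel and signaling genes 9 rose and 2 fell (Cacna2d1 and Cacna1b, the latter lost without any of replicates 2 to 5 of day 12 or 2 and 3 of day 19), with Itpr1, which releases calcium from the endoplasmic reticulum, at 1.97-fold and the calcium pumps Atp2b3 and Atp2a2 at 1.54- and 1.15-fold. Of 14 chloride transport genes 8 rose and 0 fell. Slc12a5, the transporter that expels chloride from mature neurons, rose 1.34-fold, the bicarbonate transporter Slc4a10 1.63-fold, and the vesicular exchanger Clcn3 1.2-fold.

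**Figure D2:**
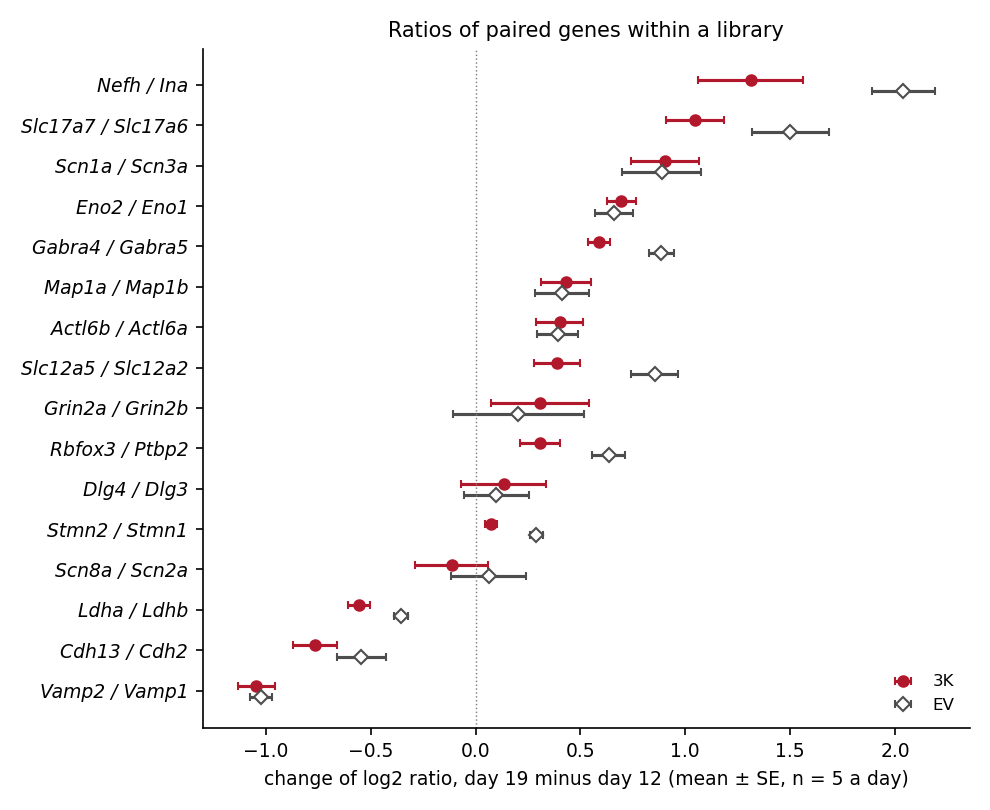
Change of the log2 ratio of 16 pairs of related genes within a library from day 12 to day 19 (x axis), as mean ± SE over 5 libraries a day, in 3K (filled) and EV (open). Each pair is written as the gene assigned to older neurons or tissue over its partner, and points to the right of 0 show a shift toward the first gene. The assignment is less certain for some pairs, such as Vamp2 over Vamp1 and Stmn2 over Stmn1. Nefh over Ina has the largest shift (1.31 in 3K and 2.04 in EV).

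Ratios of related genes within a library, on the log2(normalized count + 1) scale, depend on the size factor only through the added 1. This matters only for genes with few reads. Most ratios shifted toward the form assigned to older neurons. Of 16 pairs, 10 ratios were higher at day 19 and 3 lower by exact permutation over the 10 libraries (unadjusted p under 0.05, two-sided), and the groups did not overlap for 6 and 3 of them. With Benjamini-Hochberg adjustment of these exact p over the pairs, all but Stmn2 over Stmn1 (adjusted p = 0.059) stayed under 0.05. The pairs were chosen with earlier results of these data known. Their p-values and the count of shifts are therefore descriptions and not independent evidence of maturation. The log2 ratio of Slc17a7 to Slc17a6, the vesicular glutamate transporters of older and younger cortical neurons, rose by 1.05 ± 0.14 (SE, exact p = 0.0079), and in EV by 1.5 ± 0.18. Nefh over Ina, a late and an early neurofilament protein, rose by 1.31 ± 0.25 (exact p = 0.0079), and in EV by 2.04 ± 0.15. Nefh itself had low normalized counts of 13.3 to 32.6 at day 12 and 36.2 to 47.3 at day 19 (adjusted p = 0.038, but 0.056 with a pseudocount of 0.5, and 0.053 to 0.11 without any of replicates 1, 2 and 5 of day 12 or 1 to 4 of day 19). The sodium channel ratio Scn1a over Scn3a rose by 0.90 (EV 0.89), the enolase ratio Eno2 over Eno1 by 0.69 (EV 0.66), and the GABA-A receptor ratio Gabra4 over Gabra5 by 0.59 (EV 0.89). The microtubule ratio Map1a over Map1b rose by 0.43. Slc12a5 over Slc12a2, the pair that sets the chloride gradient, rose by 0.39 ± 0.11 (exact p = 0.016) with overlapping days, and by 0.86 ± 0.11 in EV. Grin2a over Grin2b moved by 0.31 ± 0.23 (exact p = 0.24), Dlg4 over Dlg3 by 0.14 (exact p = 0.50) and Scn8a over Scn2a by -0.11 (exact p = 0.52). Smaller shifts were those of Actl6b over Actl6a, subunits of the neuronal and the progenitor chromatin remodeler (0.40, exact p = 0.016), Rbfox3 over Ptbp2, splicing factors (0.31, exact p = 0.016) and Stmn2 over Stmn1 (0.072, exact p = 0.048). Lower at day 19 were Vamp2 over Vamp1, synaptobrevins of vesicle fusion (-1.04, with Vamp1 up 2.53-fold), Cdh13 over Cdh2, cadherins (-0.77), and the lactate dehydrogenase ratio Ldha over Ldhb (-0.56). Differences of the ratios between 3K and EV were not tested.

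Activity-regulated genes rose as a group in 3K cultures. Of 44 such genes 36 rose, 22 of them at least 2-fold (3.15% of all genes), and 1 fell, with a median log2 fold change of 0.99 in 3K and 0.74 in EV, where 33 rose. Vgf, the precursor of secreted peptides induced by firing and by neurotrophins, had 214, 220.4, 209.7, 230.1 and 209 at day 12 and 1232, 1718, 1265, 1493 and 1290.1 at day 19 (log2 fold change 2.67, SE 0.11, limma adjusted p = 4.9e-19). The day 12 libraries of Vgf lay close together and far below the lowest of day 19. Bdnf, the neurotrophin released by active neurons, rose from 149, 172, 135, 157 and 132 to 566, 769, 539, 601 and 696 (2.08, SE 0.096, adjusted p = 8.4e-18). Klf10, an early response factor, rose 2.72-fold, Rgs2, a regulator of G-protein signaling, 2.10-fold, and Plk2, a kinase that weakens overactive synapses, 1.53-fold. Sik1, a kinase that restrains CREB signaling, was the member that fell, from 194 ± 23.9 (SD, n = 5) to 151 ± 21.4 (SD, n = 5), with overlapping libraries.

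The promoters of Vgf, Plk2 and Egr2 are shown because activity-regulated genes are known targets of CREB, which binds the cyclic AMP response element (CRE), and of serum response factor, which binds the CArG box. They are the 250 bases before the start of the gene in RefSeq (rat assembly GRCr8, a later build than that of the counts), 5′ to 3′ on the strand of the gene, with the CRE core (TGACGT or its reverse complement, extended to the full CRE where present) and the CArG box in capitals.
Vgf, chr12:25277021-25277270, minus strand: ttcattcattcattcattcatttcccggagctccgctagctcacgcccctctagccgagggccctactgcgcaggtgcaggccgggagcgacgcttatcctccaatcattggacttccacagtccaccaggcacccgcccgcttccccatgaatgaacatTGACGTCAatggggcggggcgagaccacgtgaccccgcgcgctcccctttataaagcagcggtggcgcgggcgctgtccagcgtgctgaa
Plk2, chr2:43702286-43702535, plus strand: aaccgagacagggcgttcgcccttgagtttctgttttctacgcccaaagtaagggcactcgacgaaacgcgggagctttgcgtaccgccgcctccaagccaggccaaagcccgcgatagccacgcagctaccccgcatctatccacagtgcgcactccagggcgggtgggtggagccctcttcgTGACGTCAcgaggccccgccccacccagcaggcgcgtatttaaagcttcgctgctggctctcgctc
Egr2, chr20:21054442-21054691, minus strand: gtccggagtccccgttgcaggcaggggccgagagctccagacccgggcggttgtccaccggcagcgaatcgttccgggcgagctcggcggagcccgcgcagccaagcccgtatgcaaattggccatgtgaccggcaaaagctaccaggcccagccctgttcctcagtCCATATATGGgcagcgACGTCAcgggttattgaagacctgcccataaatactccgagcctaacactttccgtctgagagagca
Of the 44 activity-regulated genes tested, 36 had a promoter in the table, and the letters TGACGT stood on either strand in 17 of them (47.2%), against 1063 of the 9383 tested genes with a promoter (11.3%). The full element TGACGTCA, which contains the core, stood in 9 (25%) against 291 (3.10%), and the CArG box in 3 (8.33%) against 118 (1.26%). A match of letters is a description and not a binding site, and members of the list are in part known as CREB targets.

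**Figure D3:**
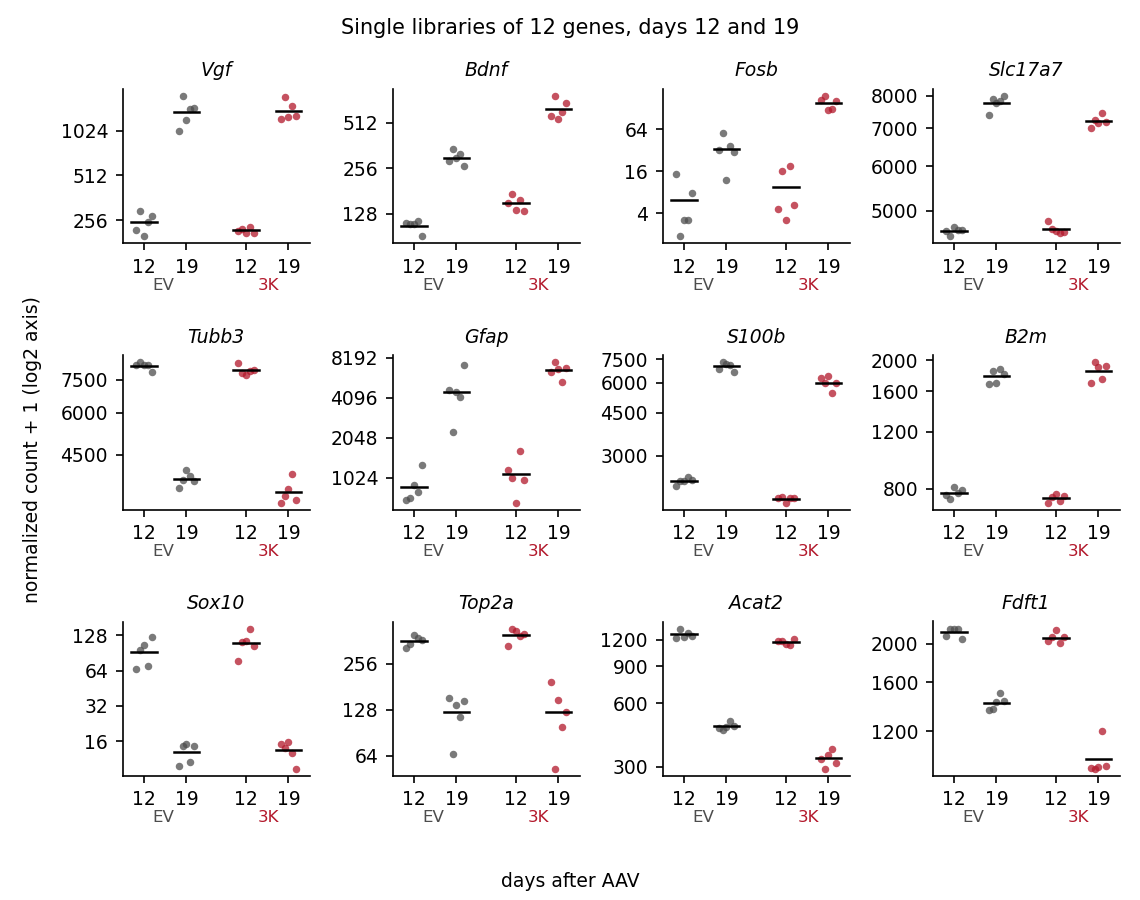
Normalized count + 1 (y axis, log2 scale) of 12 genes in each of the 5 EV and 5 3K libraries of days 12 and 19 (x axis, days after AAV). Each point is a library and the line is the group mean. In Vgf, Bdnf, Fosb, Slc17a7, Gfap, S100b and B2m the 3K libraries of day 19 all lie above those of day 12, and in Tubb3, Sox10, Top2a, Acat2 and Fdft1 all lie below.

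Neuropeptides and trophic factors rose alongside. Of 25 genes of neuropeptides, granins and peptide processing 19 rose and 0 fell, with a median of 0.70 in 3K and 0.73 in EV. Pam, which amidates peptides, rose from 745, 744, 736, 755 and 753 to 1651, 2109, 1740.3, 1720.4 and 1804 (1.27, SE 0.055, adjusted p = 1.6e-18), and Cpe, the carboxypeptidase that trims them, 1.77-fold. Of 24 genes of neurotrophins, receptor tyrosine kinases and their ligands 15 rose and 1 fell (Met, but 2 without replicate 1 or 4 of day 12 or 5 of day 19). Ret, the receptor of GDNF family ligands, rose from 85.4, 64.4, 77.2, 86.6 and 70.4 to 284, 353, 347, 319 and 329, a 4.25-fold rise with no overlap, while its log2 fold change was 1.21 in EV and the difference of the changes did not pass the threshold (adjusted p = 0.12). Fgfr1, a fibroblast growth factor receptor, rose 1.79-fold, and Met, the receptor of hepatocyte growth factor, fell 1.91-fold. Of 24 genes of RGS proteins and G-protein subunits 12 rose, with Rgs4 at 1.55-fold, and 5 fell (Gng2, Gnal, Gnao1, Rgs6 and Gng7), with Gng2 lower by 1.24-fold.

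Most astrocyte genes rose. Of 31 astrocyte genes 26 rose, 9 at least 2-fold, and 0 fell, with a median of 0.77 in 3K and 0.81 in EV. Gfap, the astrocyte intermediate filament, had 1180.4, 1029.5, 667, 1639 and 988 at day 12 and 6381, 7566, 6762, 5418 and 6814 at day 19, a 5.98-fold rise. S100b, a calcium-binding protein of astrocytes, rose from 2015, 2024, 1920.1, 2004 and 2003 to 6251, 5972, 6373, 5435 and 5974 (1.59, SE 0.058, adjusted p = 2.9e-20). The day 12 libraries of Gfap were spread far wider than those of S100b, and neither gene overlapped between days. Clu, a secreted chaperone and lipid carrier, rose 3.17-fold, Acsbg1, an acyl-CoA synthetase, 1.95-fold, and Apoe, the main lipid carrier of the brain, 1.82-fold. Sparcl1 and Sparc, secreted matrix proteins by which astrocytes promote and restrain synapses, rose 1.71- and 2.46-fold. Aldh1l1, a pan-astrocyte enzyme, was at 85.9 to 141 at day 12 and 96.5 to 110 at day 19 and was not called (-0.11, adjusted p = 0.43).

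Genes of reactive astrocytes had a median log2 fold change of 1.29 in 3K and 0.48 in EV. Of 19 tested, 12 rose, 11 at least 2-fold, and 1 fell (2 without replicate 2 or 5 of day 19), and the difference between the changes was called for 2, Vim and S100a10. The summed normalized count of the 30 matched genes was 1865 to 2001 at day 12 and 2371 to 3332 at day 19, and 1901 to 2440 in EV at day 19. S1pr3, a receptor of sphingosine-1-phosphate, rose from 99.6, 81.5, 66.3, 82.5 and 101 to 292, 341, 341, 223 and 336, Cd44, the hyaluronan receptor, from 30.2, 38.2, 30.4, 53 and 49.8 to 158, 185, 183, 114 and 180.2, and Timp1, an inhibitor of matrix proteases, from 64.0, 93.6, 72.8, 78.4 and 83.4 to 171, 218, 219, 154 and 209. In all 3 genes the days did not overlap, and replicate 4 of day 19 was the lowest of its group. Cp, a copper-carrying ferroxidase, rose 2.31-fold, and Fkbp5, a steroid-induced chaperone, fell 1.36-fold. Vim, an intermediate filament protein chosen after its values were seen, had 629.8, 696, 701, 396 and 693 at day 19 after 286, 344, 333, 360.5 and 367 at day 12, again with no overlap and with replicate 4 as the lowest of day 19.

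Of 16 tested genes of MHC class I, interferon response and complement 12 rose and 0 fell (median 0.82, EV 0.51). Of the 39 matched genes of this list only these 16 passed the filter, some perhaps only through the libraries of 3K day 19. With a minimum of 50, 8 rose and 0 fell. B2m, the light chain of MHC class I, rose from 723, 753, 770.4, 732 and 757 to 1700.3, 1969, 1902, 1743 and 1923 (1.30, SE 0.065, adjusted p = 6.4e-17). The MHC heavy chain RT1-A2 rose 3.30-fold and the interferon-induced Ifi27 2.60-fold, though reads of RT1 genes may be split among near-identical copies. Of the 3 tested members of the microglia list, Lyz2, a lysozyme, rose from 28.5, 36.2, 42.4, 38.7 and 36.8 to 136, 179, 139, 137 and 147, beside the defining microglia markers at or near 0, and the summed normalized count of the list was 306 to 333 at day 12 and 504 to 561 at day 19. Of 19 genes of perineuronal nets and matrix 7 rose and 4 fell (Vcan, Cspg4, Tnc and Tnr), with Vcan, a proteoglycan of the juvenile matrix, lower by 2.98-fold. Of 26 collagen, laminin and integrin genes 11 rose and 5 fell (Nid1, Col4a2, Col11a1, Itgb8 and Nid2), with the integrin Itgb5 at 1.75-fold and the laminin Lamb2 at 2.53-fold. Among 9 genes of endothelial, mural and fibroblast cells 4 rose (Dcn, Abcb1a, Igfbp2 and Fn1), with Dcn, a small proteoglycan, at 2.22-fold and the efflux pump Abcb1a at 2.06-fold, and 1 fell, Pdgfra, which is also the receptor of oligodendrocyte precursors, by 1.46-fold. The fibroblast collagen Col1a1 had normalized counts of 0 to 6.52 at day 12 and 0 to 64.8 at day 19. Of 4 ependymal and choroid plexus genes 1 rose (Tekt1), and none did without replicate 1 or 2 of day 12 or 5 of day 19, with DESeq2, with no filter on low values or with a minimum of 50.

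All 21 tested genes of the oligodendrocyte lineage fell, 14 of them at least 2-fold (2.62% of all genes), with a median of -1.37 in 3K and -1.89 in EV, where 18 fell. The drop ran from the lineage factor Sox10 through precursor genes such as Pdgfra to the myelin gene Mbp. Genes of progenitors and dividing cells fell with them, 24 of 33 with 5 rises (Ccnd2, Vim, Hes1, Sox2 and Hopx) and a median of -0.81. Top2a, the topoisomerase of dividing cells, had 334, 435, 421, 388 and 399 at day 12 and 193, 51.4, 147, 97.3 and 123 at day 19. Rrm2, which supplies nucleotides for replication, had 115, 125, 127, 106 and 123 at day 12 and 51.1, 23.1, 35.4, 37.3 and 35.2 at day 19. Both were lower in every library of day 19, and replicate 2 of that day was the lowest for each. The mitotic regulators Ccnb1 and Cdk1 fell 2.22- and 2.39-fold, and Ccnd2, a D-type cyclin, rose 1.61-fold.

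Nearly every gene of cholesterol synthesis and uptake fell. In cells that need sterols, the factor SREBP2 induces the enzymes from acetyl-CoA to cholesterol together with the LDL receptor, and Insig1 holds it back when sterols suffice. Of 26 such genes 25 fell, 13 at least 2-fold, and 1 rose, with a median log2 fold change of -0.97 in 3K and -0.66 in EV. Acat2, which makes acetoacetyl-CoA at the entry of the pathway, fell from 1177, 1189.5, 1142, 1131 and 1215 to 327, 293, 342, 365 and 314, a 3.57-fold fall (log2 fold change -1.83, SE 0.047, limma adjusted p = 8.3e-24). Fdps, which makes farnesyl pyrophosphate, fell from 3305, 3289.7, 3268, 3184 and 3173 to 1607, 1593, 1592, 1758 and 1486, and Dhcr7, which makes cholesterol in the last step, from 1503, 1546, 1503, 1507 and 1562 to 679, 603, 609, 742 and 605. The days of these genes were far apart, and the highest library of day 19 was replicate 4 in all 3. Hmgcs1, the synthase of the pathway's second step, fell 2.06-fold, and Insig1 1.89-fold (a regulator of the pathway, not an enzyme), both chosen after their values were seen. Lpin1, a phosphatidate phosphatase induced by the same factors, was the member that rose (0.51, adjusted p = 0.00017).

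**Figure D4:**
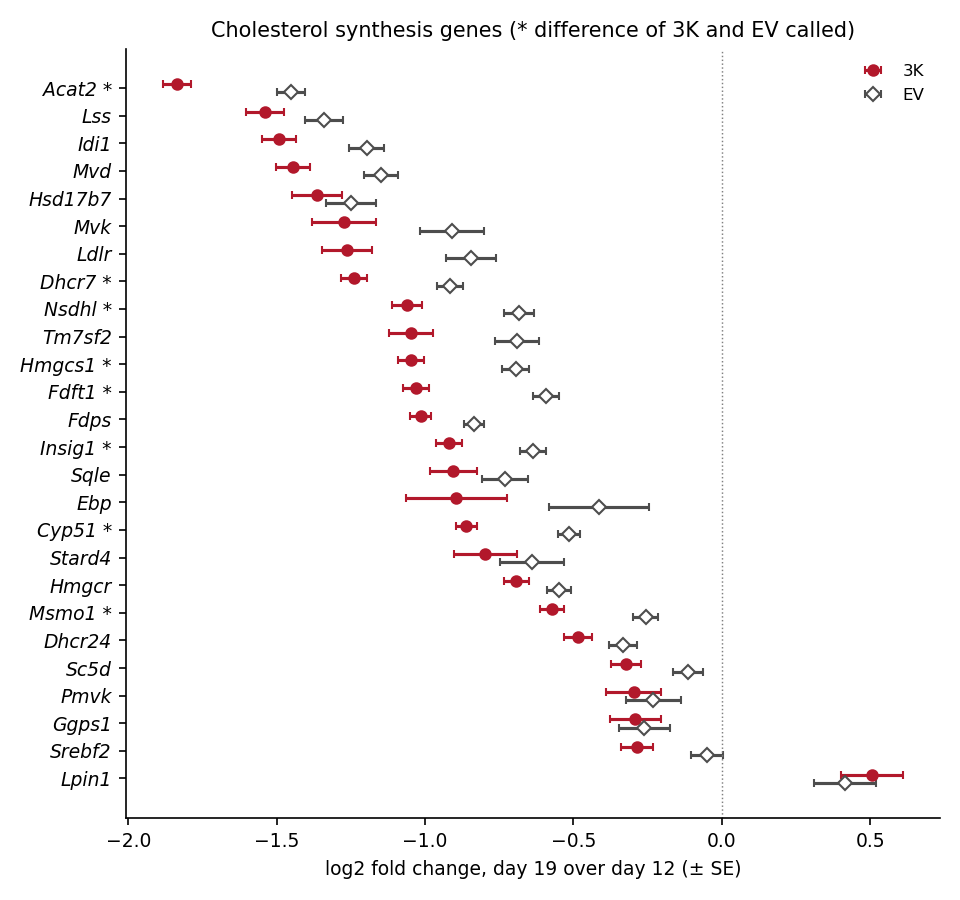
Log2 fold change from day 12 to day 19 (x axis) with its SE from limma of 26 genes of cholesterol synthesis and uptake in 3K (filled) and EV (open), ordered by the change in 3K. A star marks the 8 genes whose 3K change differed from the EV change. Acat2 is lowest in both (-1.83 and -1.45) and Lpin1 alone is above 0.

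The promoters of Fdps, Hmgcs1 and Insig1 are shown because SREBP factors are known to act beside the factor NF-Y, which binds the letters CCAAT. These letters or their reverse complement are in capitals in the 250 bases before the start of the gene in RefSeq (GRCr8), again on the strand of the gene.
Fdps, chr2:176804817-176805066, minus strand: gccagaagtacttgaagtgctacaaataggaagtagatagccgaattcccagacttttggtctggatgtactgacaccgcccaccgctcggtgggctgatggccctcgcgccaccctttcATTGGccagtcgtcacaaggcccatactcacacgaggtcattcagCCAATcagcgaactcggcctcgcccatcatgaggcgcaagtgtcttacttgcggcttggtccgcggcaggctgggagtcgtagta
Hmgcs1, chr2:53382054-53382303, plus strand: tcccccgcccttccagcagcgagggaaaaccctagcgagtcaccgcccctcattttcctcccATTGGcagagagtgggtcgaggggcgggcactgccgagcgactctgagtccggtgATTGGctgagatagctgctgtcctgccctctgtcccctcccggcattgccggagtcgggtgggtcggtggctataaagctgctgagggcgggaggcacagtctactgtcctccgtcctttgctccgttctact
Insig1, chr4:8057770-8058019, minus strand: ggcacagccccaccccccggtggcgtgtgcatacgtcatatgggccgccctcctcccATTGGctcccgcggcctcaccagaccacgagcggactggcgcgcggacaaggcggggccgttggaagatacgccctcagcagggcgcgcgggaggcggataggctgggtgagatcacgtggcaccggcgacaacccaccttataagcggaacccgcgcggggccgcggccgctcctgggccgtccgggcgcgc
CCAAT stood on either strand in 16 of the 19 cholesterol genes with a promoter (84.2%), against 3453 of 9383 tested genes (36.8%). The letters TCACNCCAC, a form of the sterol regulatory element, stood in 0 of 19 and in 99 of the 9383 (1.05%), which says only that these letters were not in these windows.

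Fatty acid genes were less uniform, with 14 falls and 6 rises among 29 and a median of -0.13. Beside Scd, Acly, which supplies cytosolic acetyl-CoA, fell from 3466, 3365, 3685, 3658 and 3353 to 1782, 1734, 1919, 2046 and 1807. Scd2, the desaturase of the rodent brain and a close relative of Scd with which it may share reads, had 32517, 32383, 31990, 34778 and 32127 at day 12 and 29879, 27403, 31791, 28679 and 32305 at day 19, overlapping groups that differed by -0.13 on the log2 scale (SE 0.041, adjusted p = 0.0098). Without replicate 2 of day 19 the adjusted p of Scd2 was 0.052. Of 19 genes of lipid efflux and carriers 8 rose and 5 fell (Fabp5, Scarb1, Fabp7, Lrp8 and Apod), with Fabp5, a fatty acid binding protein, lower by 1.79-fold. Of 27 sphingolipid genes 9 rose and 10 fell, a balance that turned to 9 rises and 7 or 8 falls without any of replicates 1 to 4 of day 12 or 2 to 4 of day 19. Among them were Sptlc1, of the first step of sphingolipid synthesis (up 1.57-fold), and Smpd3, a neutral sphingomyelinase (down 1.67-fold).

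Ribosomal protein genes fell slightly and together: 65 of 76 fell and 0 rose, with a median of -0.29 in 3K and -0.31 in EV. Rpsa, of the small subunit, had 1712, 1652, 1615, 1736 and 1754 at day 12 and 1158, 1119, 1111, 1189.8 and 1003 at day 19, and Rplp0, of the large, and Rps2, of the small, fell 1.5- and 1.46-fold. Mitochondrially encoded genes moved the other way, 10 of 12 up with a median of 0.45 (EV 0.37), among them Mt-nd2, Mt-co1 and Mt-nd5 at 1.53-, 1.48- and 1.41-fold. Of 71 nuclear genes of oxidative phosphorylation 15 rose, among them Sdha, Uqcr11 and Ndufb9 (0.28, 0.39 and 0.19), and 7 fell, with Cox5a at -0.21 (log2 fold changes). Of 25 genes of glycolysis and lactate 16 rose and 3 fell (Pdha1, Slc16a7 and Hk2). Slc2a3, the neuronal glucose transporter, rose from 599, 660.1, 682, 615 and 679 to 1086, 1188, 1167, 1134 and 1192, Pfkm and Pfkp, phosphofructokinases, 1.5- and 1.78-fold, and Pdha1, of the pyruvate dehydrogenase complex, fell 1.15-fold. Of 49 chromatin and RNA regulators 26 fell, with the deacetylase Hdac2 and the histone variant gene H2afz lower by 1.40- and 1.51-fold, and 8 rose, with Mbnl2, which switches splicing to adult forms, at 1.84-fold.

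Stress lists were mixed. Genes of ER stress and heat shock split 8 up and 9 down among 32, but 9 up and 8 down by edgeR and DESeq2 and 1 more up than down without replicate 3 of day 12 or 1, 3, 4 or 5 of day 19. On this list were Cryab, a small heat shock protein, up from 71.2, 45.3, 86.9, 72.3 and 75.8 to 199, 206, 210.2, 179 and 193, the cochaperone Dnajb5 up 1.44-fold and the disulfide isomerase Pdia6 down 1.22-fold. Of 35 ATF4 target and amino acid genes 8 rose and 6 fell. Ddit3 (CHOP), a transcription factor of the integrated stress response, rose 1.83-fold, Cebpb, a C/EBP factor, 1.80-fold, and Gars, a tRNA synthetase, fell 1.17-fold. Of 31 antioxidant and iron genes 18 rose and 6 fell, with the peroxiredoxin Prdx6 at 1.88-fold, the metallothionein Mt2A at 2.41-fold, ferritin Fth1 at 1.43-fold, and the transferrin receptor Tfrc lower by 1.68-fold. Of 34 genes of lysosomes and Parkinson's disease 19 rose and 5 fell (Mapt, Uchl1, Atp13a2, Fbxo7 and Vps13c), with the protease Ctsb at 1.39-fold and the membrane protein Lamp2 at 1.55-fold. Of 23 genes of p53 and apoptosis 7 rose and 6 fell, the death effector Bax 1.33-fold.

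The remaining lists were small or mixed. Genes of cortical layers had 3 rises (Nr4a2, Etv1 and Rora) and 7 falls among 23, with Ldb2 and Crym, markers of deep layer neurons, lower by 1.53- and 1.5-fold. Of 13 genes of thyroid hormone action 6 rose, among them the transporter Slco1c1 (2.04-fold) and the hormone-induced Klf9 (2.08-fold) and Rasgrp1 (2.35-fold), and 3 fell (Crym and Hr among them). Of 27 Wnt genes 9 rose and 6 fell. Wls, which carries Wnt proteins to the cell surface, rose from 532, 567, 503, 543 and 515 to 1006, 1020.5, 1009, 869.5 and 995, and its rise of 0.88 in 3K was larger than that of 0.45 in EV (difference 0.43, adjusted p = 0.0046). Porcn, which acylates Wnt proteins, rose 1.33-fold, and Sfrp2, which binds them, fell 2.28-fold. Cadherins and protocadherins split 9 and 9 among 30. Housekeeping genes split 4 (B2m, Sdha and Pgk1 among them) and 4 (Actb, Tfrc, Ppia and Ywhaz) among 15. Of the most highly counted genes, Actb, the cytoskeletal actin, fell 1.51-fold, the isomerase Ppia 1.2-fold and the adaptor Ywhaz 1.06-fold, and Cst3, a secreted protease inhibitor, rose 1.97-fold, Mt-cox3 1.30-fold and Mt-atp6 1.33-fold.

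The change with age in 3K cultures was set beside that in EV cultures, which shares no library with it, to ask which genes changed differently with αSyn 3K. In EV 3052 genes rose and 2808 fell (45.4% of genes tested, 45.8% in 3K). Called in the same direction in both were 4573 genes, 77.3% of the 3K calls and 78% of the EV calls, and 8 were called in opposite directions. The difference between the changes was called for 70 genes (0.542% of 12911), 43 higher (0.333%) and 27 lower (0.209%) in 3K, with 1217 at an unadjusted p under 0.05. Its median SE was 0.143 on the log2 scale, so that small differences could not be detected. Of the 333 genes that changed at least 2-fold in 3K with a mean count of at least 50, 331 had the same sign in EV. Of the 70 genes, 30 changed in the same direction in both and more in 3K, 13 in the same direction and less in 3K, and 11 in 3K without a call in EV. The count of 70 was 110 without 3K day 19 replicate 4, 35, 38 and 44 without replicates 3, 5 and 1 of that group, and 42 and 39 without 3K day 12 replicates 3 and 4. Leaving out EV day 12 replicates 1, 3 and 4 gave 37, 32 and 43, and EV day 19 replicates 2, 3 and 4 gave 41, 45 and 43.

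**Figure D5:**
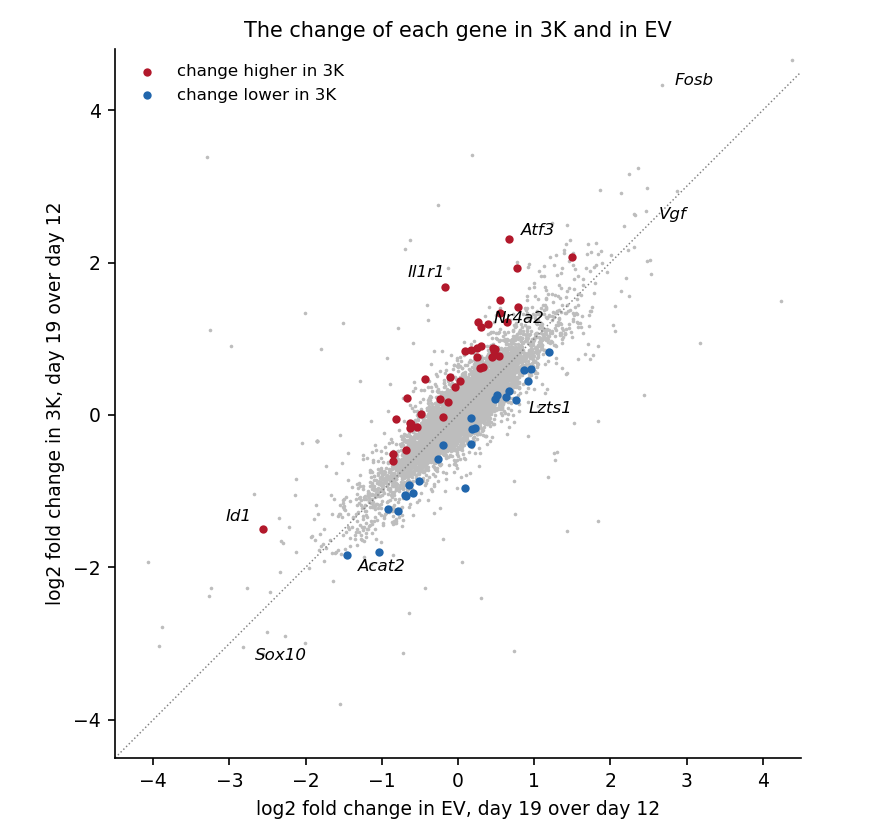
Log2 fold change from day 12 to day 19 of each of 11449 genes (mean normalized count of at least 20) in EV (x axis) and in 3K (y axis), with the line of equal change dotted. Red and blue points are genes whose change was higher or lower in 3K by limma, 66 of the 70 being in the drawn range. Most genes lie along the line, with Il1r1 and Atf3 above it and Acat2 and Lzts1 below.

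Of the 48 gene lists, cholesterol synthesis held the most differences, 8 of 26 genes (Acat2, Cyp51, Dhcr7, Fdft1, Hmgcs1, Insig1, Msmo1 and Nsdhl), all with the deeper fall in 3K, against 0.209% of all genes lower in 3K. Fdft1, squalene synthase, had 2028, 2083, 2169, 2004 and 2075 at day 12 and 970.2, 964, 976, 1199.6 and 979 at day 19 in 3K. In EV it had 2093, 2176, 2178, 2184 and 2055 at day 12 and 1357, 1369.7, 1425, 1503 and 1428 at day 19. Its log2 fold change was -1.03 in 3K and -0.59 in EV, a difference of -0.44 (SE 0.062, limma adjusted p = 0.00032). The days were separate in both treatments, and at day 19 all 3K libraries lay below all EV libraries. Cyp51, the lanosterol demethylase, changed by -0.86 in 3K and -0.51 in EV (difference -0.35, adjusted p = 0.00032), Acat2 by -1.83 and -1.45 (-0.38, adjusted p = 0.0046), and Hmgcs1 by -1.05 and -0.69 (-0.35, adjusted p = 0.0046). The differences of Dhcr7, Nsdhl, Msmo1 and Insig1 were -0.32, -0.38, -0.32 and -0.28. Of these 8 genes all but Insig1 kept the call in all 30 alternatives of processing and of left-out libraries, and Insig1 in 20. Hmgcs1, Cyp51, Msmo1, Insig1 and Nsdhl were named after their values were seen. Scd had a difference of -0.54 (SE 0.16, adjusted p = 0.13) and Fdps of -0.18 (adjusted p = 0.11), which did not pass.

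Of the activity-regulated genes 4 rose more in 3K than in EV (0.333% of all genes were higher): Nr4a2, Bdnf, Rgs4 and Atf3. Nr4a2, an orphan nuclear receptor induced by activity, rose from 150.3, 155, 149, 128 and 152 to 310.2, 363, 301, 308 and 359 in 3K. In EV it rose from 131, 132, 117, 116 and 103 to 159, 175, 132, 149 and 127 (difference 0.85, SE 0.13, adjusted p = 0.00032). The 3K libraries of day 19 exceeded all the others of days 12 and 19. Bdnf had a difference of 0.58 (adjusted p = 0.040), kept in 14 of 30 alternatives, Rgs4 of 0.30 (adjusted p = 0.0083), kept in all 30, and Atf3, a stress-induced factor, of 1.64 (adjusted p = 0.031), kept in 18. Atf3 rose from 20.5, 15.1, 18.5, 14.3 and 10.8 to 86.1, 106, 77.0, 62.9 and 77.7 in 3K. In EV its counts were 12.7, 6.09, 12.4, 11.9 and 28.0 at day 12 and 21.6, 17.3, 21.7, 22.1 and 21.7 at day 19, and these overlapped. Fosb, with the largest rise of the list in 3K, had a difference of 1.65 that did not pass (adjusted p = 0.47), and that of Vgf was 0.20 (adjusted p = 0.76).

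Among genes of stress and of glia, Nqo1, a quinone reductase of the NRF2 response, had 268, 292, 247, 308 and 314 at day 12 and 551, 475, 519, 428 and 595 at day 19 in 3K. In EV it had 269, 263, 308, 291 and 247 at day 12 and 301, 264, 285, 275 and 342 at day 19 (difference 0.75, SE 0.13, adjusted p = 0.0046, kept in all 30 alternatives). It rose in 3K, where its days did not overlap, and was not called in EV (adjusted p = 0.47). Il1r1, the interleukin-1 receptor, had 16, 45.3, 26.1, 28.5 and 24.9 at day 12 and 101, 104, 80.7, 48.1 and 127 at day 19 in 3K, where replicate 4 of day 19 was the lowest. In EV it had 35.5, 20, 25.8, 14.1 and 29.1 at day 12 and 16.7, 19.1, 23.8, 30.7 and 17.6 at day 19, a difference of 1.85 (adjusted p = 0.021, kept in 26 of 29). Both genes, and Vim with a difference of 0.68 (adjusted p = 0.038, kept in 12 of 30), were named after their values were seen. Cryab and Ddit3 rose more in 3K by 0.96 and 0.62 (adjusted p = 0.029 and 0.044, kept in 22 and 13 of 30). Id1, an inhibitor of basic helix-loop-helix factors, fell less in 3K (-1.5) than in EV (-2.56), a difference of 1.06 (adjusted p = 0.044, kept in 13 of 30).

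The differences named by their size went both ways. Higher in 3K were those of Slc25a32, a mitochondrial folate carrier (0.96, adjusted p = 0.0083), Phf13, a chromatin reader (0.78, adjusted p = 0.014), Hbegf, a growth factor of the EGF family (0.90, adjusted p = 0.033), Car8 (0.88, adjusted p = 0.049) and Ier5l (0.79, adjusted p = 0.034). Slc25a32 had 52.5, 66.4, 56.5, 57.0 and 47.6 at day 12 and 136, 133, 133, 124 and 131 at day 19 in 3K, and it and Phf13 kept the call in all 30 alternatives. Hbegf kept it in 18, Ier5l in 16 and Car8 in 10. Lower in 3K was the change of Lzts1, a postsynaptic protein, with 829, 741, 811, 812 and 773 at day 12 and 823, 994, 842, 948 and 934 at day 19 in 3K. In EV it had 824, 804, 798, 728 and 776 at day 12 and 1272, 1371, 1260.1, 1389 and 1346 at day 19 (difference -0.56, SE 0.072, adjusted p = 9.0e-05). Its days overlapped in 3K and not in EV. Lower too were the changes of the proto-oncogene Mycn, which fell in both (-0.47, adjusted p = 0.018), of Itpka, an inositol phosphate kinase of spines that rose in both (-0.47, adjusted p = 0.034), of Nsmf, a messenger from synapse to nucleus (-0.39, adjusted p = 0.018), of Ldoc1l (-0.55, adjusted p = 0.044) and of Cdkn3 (-0.75, adjusted p = 0.049, kept in 5 of 30 alternatives). The call of the difference was kept in 19 of 30 alternatives for Itpka, in 14 for Ldoc1l and in all 30 for Lzts1, Mycn and Nsmf. Among metabolic genes the changes of Ldha and Pfkp were lower (-0.21 and -0.37, adjusted p = 0.0083 and 0.044, the latter kept in 13 of 30). Nsmf was 1 of the 8 genes called in opposite directions, down in 3K (-0.17, though not called without replicate 1 of day 19, adjusted p = 0.072) and up in EV (0.23), and Hbegf and Tmem50b, the latter named after its values were seen, were up in 3K (0.47 and 0.17) and down in EV (-0.43 and -0.14). Gdf1 had the largest of these differences (-7.36, kept in 26 of 30 alternatives), most of it from a change of 6.51 in EV beside -0.85 in 3K. In EV its counts were 0, 0, 0, 174 and 54.9 at day 12 and 869.6, 279, 826, 617 and 488 at day 19. In 3K they were 522, 41.3, 476, 655 and 195 at day 12 and 20.8, 248, 475, 159 and 171 at day 19, and libraries of one group differed several-fold or were at 0 in part.

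Among the genes that the study singled out as changed by αSyn 3K over all days, Lpcat1, a lysophospholipid acyltransferase, had 779, 739.6, 741, 783 and 740.5 at day 12 and 705, 812, 825, 713 and 779 at day 19 in 3K (log2 fold change 0.017, adjusted p = 0.83) while its change was -0.49 in EV (difference 0.51, SE 0.074, adjusted p = 0.00032). Rnf145, an ER-resident E3 ubiquitin ligase, rose from 746, 719.5, 782, 851 and 825 to 1088, 1141, 1006, 966 and 1123 in 3K and was not called in EV (0.028), a difference of 0.41 (adjusted p = 0.0080). Both differences and that of Rgs4 held in all 30 alternatives, though the study chose these genes on the same libraries, so that they are not independent evidence. In the others the difference of changes did not pass: Snn rose in 3K (0.18, EV -0.053, adjusted p of the difference = 0.19), as did Pcdh8, an activity-regulated protocadherin (0.48, EV 0.30, 0.38), and Rgcc, a cell cycle regulator (0.28, EV 0.40, 0.78). Psat1, of serine synthesis, had 0.13 in 3K (adjusted p = 0.11) and 0.26 in EV, Fam102b -0.0082 and -0.44, and Acsbg1 rose in both (0.96 and 0.99). Reads of αSyn 3K rose 2.86-fold over the same days. The rise of these reads, the age of the cultures and any loss of cells cannot be told apart in 3K.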

How the data were processed

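RNA of the cultures was made into SMART-Seq and Nextera XT libraries, which do not keep the strand, so that reads of overlapping genes cannot be told apart. The authors aligned paired-end reads with STAR 2.5.2b to Rnor_6.0 with the vector sequence added, estimated counts with RSEM 1.2.31, and deposited 1 table of normalized counts, RSEM counts divided by DESeq2 size factors, a signal that is no longer a raw count. The size factors may have been set with libraries not analysed here. The 2 vector rows were kept out of the tests.

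Values times the size factor, recovered from the steps between low values, gave whole reads for 100% of values within 0.01 read in every library, with 4747020 to 7035869 reads over genes. These reads served only for depth and for the edgeR 4.0.16 and DESeq2 1.42.0 alternatives. Of 32883 genes, the 12911 whose normalized count reached 10 in 5 or more libraries were tested with limma 3.58.1 (R 4.3.3) on log2(normalized count + 1), with 6 group means over 30 libraries, day 6 included, and Benjamini-Hochberg adjustment over all genes tested. The difference of the 3K and EV changes was a contrast of the same fit. Ratios of pairs and vector reads were compared by exact permutation over libraries (scipy 1.17.1). Tested on simulated counts of 3K day 19 against day 12 (12911 genes), the procedure recovered 41.2%, 64.7% and 100% of 1.25-, 1.5- and 2-fold rises and 42.4%, 75.8% and 87.9% of such falls, and called 8 of 12711 unchanged genes. Far fewer genes changed in this simulation than were called in the data. The adjusted threshold depends on that share, so these rates do not give the recovery in the data.

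Members of the 48 gene lists and 16 pairs were chosen with earlier results of these data known. Named genes were the 12 largest changes in each direction without overlap and with a mean of at least 50, up to 3 members of each list with the smallest adjusted p and the leading member of the other direction, the 8 largest differences in each direction with a mean of at least 50, both members of each pair, the genes of the study's main table, and the 5 most highly counted called genes in each direction. Some genes and pairs named by these rules are not reported here. Alternatives were edgeR, DESeq2, pseudocounts of 0.5 and 5, no filter, a minimum of 50, equal totals, equal upper quartiles, the compared groups alone, a replicate block, and each library left out in turn. Leaving libraries out for vector reads and pairs, and equal totals for vector reads, were added after the data were seen. The promoter sequences come from RefSeq (GRCr8), matched by symbol.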

Additional observations from a re-analysis of the deposited data

Results flagged for a closer look

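In 418 groups of 5 libraries of named genes, Dixon's test at the 95% level set 21 libraries apart from their group, and chance alone sets apart about 1 in 20 groups. At 3K day 12 the library set apart was the highest of the group, with normalized counts of 4797 for Slc17a7 (others 4570.0 to 4631), 72.0 for Cp (others 36.8 to 43.8), 1345 for Pfkm (others 1209 to 1241), 93.6 for Scn1a (others 65.0 to 72.8) and 34780 for Scd2 (others 31990 to 32520). It was the lowest of the group at 3K day 12 with 11.9 for Ptgs2 (others 19.4 to 21.4), 121 for Vcan (others 164 to 178), 1920.0 for S100b (others 2003 to 2024), 6271 for Mt-nd2 (others 6748 to 6861), 472 for Dnajb5 (others 503 to 515), 618 for Prdx6 (others 677 to 698) and 128 for Nr4a2 (others 149 to 155). At 3K day 19 it was the highest with 1320.0 for Arhgef7 (others 1243 to 1264), 1676 for Gabra5 (others 1529 to 1555), 179 for Lyz2 (others 136 to 147), 1200.0 for Fdft1 (others 964 to 979.5) and 4379 for Hmgcs1 (others 3422 to 3592). At 3K day 19 it was the lowest with 566 for Kcnab1 (others 646 to 668), 921 for Pdgfra (others 1135 to 1187), 396 for Vim (others 629.8 to 702) and 869.5 for Wls (others 995 to 1021). The library of Fdft1, Hmgcs1, Vim and Wls was replicate 4 of day 19.

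The change from day 12 to 19 differed between 3K and EV for 36 named genes by limma's test of the difference, and the values below are the 3K log2 fold change minus that of EV with the adjusted p in parentheses. The difference was 1.85 for Il1r1 (0.021), 1.64 for Atf3 (0.031), 1.06 for Id1 (0.044), 0.96 for Slc25a32 (0.0083), 0.96 for Cryab (0.029), 0.90 for Hbegf (0.033), 0.88 for Car8 (0.049), 0.85 for Nr4a2 (0.00032), 0.79 for Ier5l (0.034), 0.78 for Phf13 (0.014), 0.75 for Nqo1 (0.0046), 0.68 for Vim (0.038), 0.62 for Ddit3 (0.044), 0.58 for Bdnf (0.040), 0.51 for Lpcat1 (0.00032), 0.43 for Wls (0.0046), 0.41 for Rnf145 (0.0080), 0.31 for Tmem50b (0.0046) and 0.30 for Rgs4 (0.0083). It was -7.36 for Gdf1 (0.021), -0.75 for Cdkn3 (0.049), -0.56 for Lzts1 (9.0e-05), -0.55 for Ldoc1l (0.044), -0.47 for Mycn (0.018), -0.47 for Itpka (0.034), -0.44 for Fdft1 (0.00032), -0.39 for Nsmf (0.018), -0.38 for Acat2 (0.0046), -0.38 for Nsdhl (0.0080), -0.37 for Pfkp (0.044), -0.35 for Hmgcs1 (0.0046), -0.35 for Cyp51 (0.00032), -0.32 for Dhcr7 (0.0082), -0.32 for Msmo1 (0.0068), -0.28 for Insig1 (0.029) and -0.21 for Ldha (0.0083). Of these, Il1r1, Nqo1, Vim, Tmem50b, Nsdhl, Hmgcs1, Cyp51, Msmo1 and Insig1 were chosen after their values were seen.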

How the results depend on the processing

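The count of genes that changed from day 12 to 19 in 3K was 5318 to 5966 over the other alternatives and 5429 to 5726 with a library left out, against 5916. With equal totals 2829 rose and 3137 fell, with a shift of the median log2 fold change of -0.019. Of the values of single genes, 2078 kept their direction and their side of the threshold under these alternatives, 6 crossed into the call, 4 lost it and 1 turned. With a library left out 2066 held, 3 crossed in, 14 were lost and 7 turned. The turned values belonged to genes without a call: Lpcat1 at -0.0029 with equal totals and -0.0102 to 0.0461 with a library left out, Slc12a2 at -0.0179 to 0.0826, Fam102b at -0.0583 to 0.0452 and Grin2b at -0.0866 to 0.0442. The balance of rises and falls turned in 2 of 48 lists, sphingolipid genes and genes of ER stress, and 10 lists had a count that moved by over 1.5 times under an alternative, most of them counts of 1 to 3. Of the larger ones, reactive astrocyte genes had 7 rises in place of 12 and Wnt genes 5 in place of 9 among fewer genes tested with a minimum of 50, and nuclear genes of oxidative phosphorylation 11 falls in place of 7 with equal totals. The count of differences between 3K and EV, 70, was the least stable: DESeq2 called 108 (66 higher, 42 lower, 1002 adjusted p not given), no filter on low values, which tested 20634 genes, called 29, edgeR 67, equal totals 62, and leaving out a library gave 32 (EV day 12 replicate 3) to 110 (3K day 19 replicate 4). Of 36 named differences 20 held in every alternative. Replicate numbers did not pair the 3K libraries: the correlation of same-numbered deviations was -0.097 to 0.078, and the own number was best in 1 of 5 cases. In EV the correlations were weak but all positive, 0.042 to 0.094, and the own number was best in 4 of 5 cases. A replicate block gave 5935 calls in 3K, 5868 in EV and 53 differences, 50 of them shared with the 70. The log2 fold change of vector reads was 1.46 to 1.54 with a library left out and 1.49 with equal totals. With a library left out, 9 to 10 of the 16 pair ratios were higher at an exact p under 0.05, against 10 with all libraries. Library depth and 5 libraries a group limit what could be called. In simulated counts of 3K day 19 against day 12, 64.7% of 1.5-fold rises were recovered. Far fewer genes changed there than in the data, so this rate does not give the recovery in the data.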
